A study of Mus musculus with 32 samples.

Results

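The genes described here are 36 genes of the fibroblasts and barrier cells of the meninges and of the collagen matrix around them, read in 32 bulk RNA libraries of mouse hypothalamus. They were taken by symbol through a GRCm38 gene annotation, and all 36 were found among the 55401 genes of the deposited table. They comprise 9 collagen genes, 5 small leucine-rich proteoglycans, 6 other secreted proteins, 5 solute carriers, 6 growth factor and retinoid genes, and 5 genes of transcription factors and a cadherin. The libraries came from male C57BL/6NTac mice, 1 mouse each, that were either hemizygous Gpr101 knockouts (KO) or wild-type littermates (WT), Gpr101 being an X-linked orphan receptor. All mice ate standard chow up to 7 weeks of age. They then received a control diet (WT_CD, n = 7, and KO_CD, n = 8) or a high-fat diet with 60% of its energy from fat (WT_HFD, n = 8, and KO_HFD, n = 9) until they were killed at 149 or 150 days. The mice of 149 days were 6 in WT_CD, 1 in WT_HFD, 5 in KO_CD and 1 in KO_HFD, so that age and diet were largely joined.

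The meninges are the membranes around the brain, and their fibroblasts lay down collagens, small proteoglycans that bind collagen fibrils, and other matrix proteins. Barrier cells of the arachnoid join through E-cadherin and carry solute transporters, and the same tissue makes retinoic acid, bone morphogenetic proteins and insulin-like growth factor 2. The hypothalamus lies on the ventral surface of the brain, where pia and arachnoid can come away with the tissue. In bulk tissue a lower level can mean fewer cells of a type or less RNA per cell, and these cannot be told apart.

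Libraries held 25.3 to 34.2 M reads on genes (median 27.7 M). At the median depth 1 read was 0.0361 CPM, the unit of the levels below, in which each library is scaled to 1 M reads on genes. Gpr101 had 0 reads in all 8 KO_CD libraries, 1 read in total in the 9 KO_HFD libraries and 2471 to 3472 reads in each wild-type library, as the labels say. The tissue label was also borne out, since 12 hypothalamic markers such as Avp and Hcrt summed to 896 to 1247 CPM in every library. All 36 genes passed the filter of 10 normalized counts in at least 7 libraries, and 34 reached that count in all 32 libraries. The exceptions were Osr1, which reached it in 31 libraries, and Slc22a2, which reached it in 9 and had 0 to 37 reads.

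Promoter sequences are printed as examples for 3 members that followed the other members closely, Col1a2, Fmod and Slc13a4, and for Col6a3, which followed least. These 4 were chosen after their values were seen, and no difference in sequence between them was tested. The windows run from 250 bases before to 50 bases after the RefSeq start (GRCm38.p6) and are written 5′ to 3′ on the gene's strand. Capitals mark a CCAAT box (CCAAT, or ATTGG on the other strand) or a GC box (GGGCGG, or CCGCCC), and no window held the TATA box TATAAA or its reverse complement TTTATA. The letters of these motifs do not overlap one another in the windows printed.
Col1a2 (chr6:4505368-4505667, plus strand): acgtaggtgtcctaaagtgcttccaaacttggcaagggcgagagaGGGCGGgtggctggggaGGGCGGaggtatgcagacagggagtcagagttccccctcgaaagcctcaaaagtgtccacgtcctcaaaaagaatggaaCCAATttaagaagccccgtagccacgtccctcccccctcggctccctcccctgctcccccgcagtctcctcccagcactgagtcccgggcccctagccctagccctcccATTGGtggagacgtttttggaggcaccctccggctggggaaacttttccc
Fmod (chr1:134037004-134037303, plus strand): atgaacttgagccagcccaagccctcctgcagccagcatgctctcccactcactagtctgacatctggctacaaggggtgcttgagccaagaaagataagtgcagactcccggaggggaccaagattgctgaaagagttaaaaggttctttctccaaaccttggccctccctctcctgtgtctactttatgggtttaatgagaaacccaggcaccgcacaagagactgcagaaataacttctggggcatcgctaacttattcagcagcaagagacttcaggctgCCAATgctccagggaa
Slc13a4 (chr6:35308077-35308376, minus strand): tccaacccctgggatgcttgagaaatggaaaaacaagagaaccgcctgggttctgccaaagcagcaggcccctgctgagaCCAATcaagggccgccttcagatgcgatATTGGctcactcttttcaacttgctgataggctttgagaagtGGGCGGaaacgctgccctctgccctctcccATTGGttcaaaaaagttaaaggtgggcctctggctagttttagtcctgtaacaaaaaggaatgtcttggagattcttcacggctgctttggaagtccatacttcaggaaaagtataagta
Col6a3 (chr1:90843922-90844221, minus strand): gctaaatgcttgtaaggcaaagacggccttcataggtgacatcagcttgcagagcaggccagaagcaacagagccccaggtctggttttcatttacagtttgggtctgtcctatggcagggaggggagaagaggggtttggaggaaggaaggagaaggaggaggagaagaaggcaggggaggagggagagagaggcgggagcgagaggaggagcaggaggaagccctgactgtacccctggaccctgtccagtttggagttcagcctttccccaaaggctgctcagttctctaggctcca
The Slc13a4 window held 3 CCAAT boxes and 1 GC box, that of Col1a2 held 2 of each, that of Fmod held 1 CCAAT box, and that of Col6a3 held 0 of the motifs. Promoters were matched for 24 of the 36 genes, as 32 windows. A CCAAT box was in 37.5% of those windows and in 37.4% of all 32851 windows in the table, a GC box in 50% against 35.7%, and a TATA box in 6.25% against 13.6%. These are matches of letters only.

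The summed level of the 36 genes varied 4.27-fold between libraries, from 238 to 1016 CPM, and most of that spread lay inside the groups. Its lowest, median and highest values were 255, 278 and 586 CPM in WT_CD, 238, 487 and 1016 CPM in WT_HFD, 246, 292 and 832 CPM in KO_CD, and 261, 350 and 1007 CPM in KO_HFD. In every group some libraries sat near 250 CPM and at least 1 was more than double that. A total of 23 libraries lay between 238 and 432 CPM and 9 lay between 586 and 1016 CPM. The 9 high libraries were 1 of 7 in WT_CD, 4 of 8 in WT_HFD, 1 of 8 in KO_CD and 3 of 9 in KO_HFD, and the groups overlapped widely. As means the groups were 326 ± 117 CPM in WT_CD (SD, n = 7), 566 ± 334 CPM in WT_HFD (SD, n = 8), 360 ± 196 CPM in KO_CD (SD, n = 8) and 457 ± 247 CPM in KO_HFD (SD, n = 9).

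**Figure D1:**
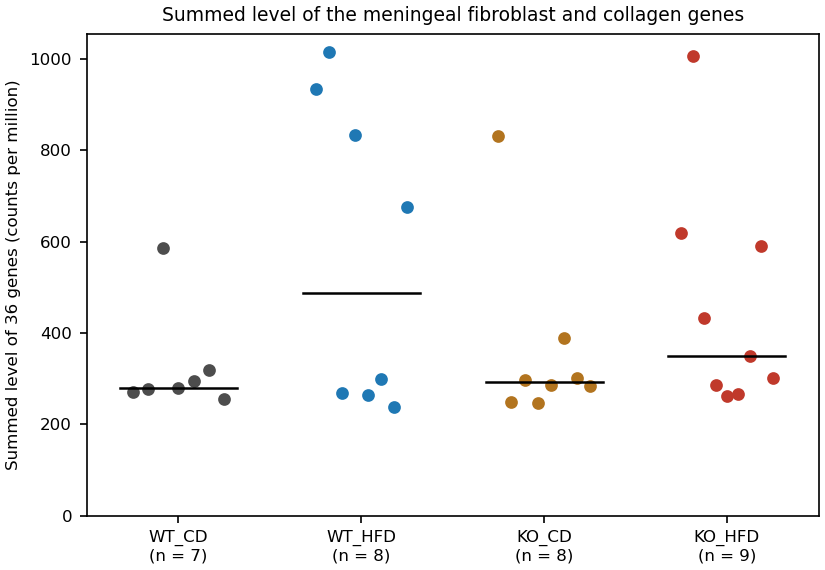
Summed level of the 36 genes in CPM (vertical axis) in each of the 32 libraries, by group, with the group median as a line. Libraries between 586 and 1016 CPM occur in all 4 groups, 4 of them in WT_HFD and 1 in WT_CD.

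The high libraries were unevenly placed along the running number of the labels, which goes through the groups in turn and is not stated to be a batch. Of the 8 libraries numbered 1 to 8, 5 were over 500 CPM and the median was 725 CPM. In the 3 later runs of 8, the counts over 500 CPM were 2, 0 and 2 and the medians were 292, 290 and 301 CPM. Sequencing depth did not move with the level, with r = -0.04 and rho = -0.09 over the 32 libraries. Whether dissection differed along the numbers was not tested.

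Each gene varied within groups more than the median gene of the series. The SD of log2 values about the group means was 0.20 to 1.58 for the 36 genes, with a median of 0.80, against a median of 0.12 over the 19928 genes tested. The least variable members, Col5a2 and Col6a3, stood at the 63.9th percentile of all genes, and the median member stood at the 98.4th. The genes compared were not matched for level, and the members were chosen with earlier results of these data known. Solute carriers varied most, with a summed level 14.7-fold higher in the highest library than in the lowest, and collagens varied least, at 2.50-fold.

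Collagens gave the largest share of the summed level and included Col6a3 and Col5a2, the members that followed the others least. Col1a2, which with Col1a1 encodes the chains of type I collagen, lay at 17.4, 18.2 and 33.6 CPM in WT_CD (lowest, median and highest, as in the values below), at 16.1, 30.7 and 60.5 CPM in WT_HFD, at 15.7, 19.9 and 49.2 CPM in KO_CD, and at 18.1, 21.9 and 59.8 CPM in KO_HFD. Its lowest libraries were alike in all groups, and the WT_HFD median was the highest. Col3a1, the chain of type III collagen, had the widest spread of the 9, at 2.64, 3.03 and 9.09 CPM in WT_CD, 2.73, 7.73 and 19.4 CPM in WT_HFD, 2.75, 4.50 and 12.7 CPM in KO_CD, and 3.10, 5.80 and 17.5 CPM in KO_HFD. The highest library was 7.35-fold above the lowest, and the groups overlapped.

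Col6a3 and Col5a2 did not share this spread. Col6a3, 1 of the chains of the beaded filaments of type VI collagen, lay at 13.3, 16.6 and 19.6 CPM in WT_CD, 11.5, 16.1 and 19.8 CPM in WT_HFD, 13.9, 15.5 and 18.7 CPM in KO_CD, and 11.9, 16.5 and 18.3 CPM in KO_HFD. Its highest library was 1.72-fold above its lowest, and its group medians lay within 15.5 to 16.6 CPM. Its partner chains Col6a1 and Col6a2 ranged 2.30-fold and 2.96-fold. Col5a2, a chain of the type V collagen that limits fibril width, ranged 1.71-fold, while Col5a1, the other main chain, ranged 3.08-fold. Col12a1, a collagen on the fibril surface, ranged 2.11-fold and Col1a1 ranged 4.39-fold.

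The small leucine-rich proteoglycans, which coat collagen fibrils and control their assembly, split into steep and flat members. Fmod (fibromodulin) lay at 4.45, 5.20 and 29.9 CPM in WT_CD, 3.29, 21.6 and 54.3 CPM in WT_HFD, 3.23, 5.16 and 43.3 CPM in KO_CD, and 3.89, 7.97 and 60.5 CPM in KO_HFD. Ogn (osteoglycin) lay at 2.23, 3.31 and 15.7 CPM in WT_CD, 1.93, 12.2 and 34.0 CPM in WT_HFD, 2.22, 3.18 and 26.1 CPM in KO_CD, and 2.21, 4.26 and 36.4 CPM in KO_HFD. Each had 1 library far above the rest in WT_CD and in KO_CD, and both ranged 18.8-fold. Dcn (decorin) ranged 5.23-fold and Lum (lumican) 6.67-fold, whereas Prelp ranged 2.19-fold and was, per length, the most abundant of the 5, at a median of 6.53 CPM per kb of exon against 3.30 for Dcn.

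The other secreted proteins moved as a tight set, with pairwise r of 0.93 to 0.97 within groups. Mgp, encoding matrix Gla protein, an inhibitor of calcification, was the member with the highest level per length, at a median of 8.67 CPM per kb. It lay at 6.76, 9.30 and 21.3 CPM in WT_CD, 7.31, 17.5 and 52.7 CPM in WT_HFD, 7.04, 9.79 and 31.6 CPM in KO_CD, and 6.93, 13.4 and 41.0 CPM in KO_HFD, and the groups overlapped from the low end. Aebp1, whose product binds collagen, ranged 5.09-fold and gave 7.22% of the summed level, the largest share of any member. Pcolce, the enhancer of procollagen C-proteinase, ranged 6.10-fold, Serping1, the C1 inhibitor of complement, 3.97-fold, Fbln1 (fibulin-1) 4.16-fold, and Islr, a marker of stromal fibroblasts, 7.28-fold. In the annotation Islr overlaps Islr2 on the same strand and Pcolce overlaps Fbxo24. Islr2 was at 21.9 to 29.2 CPM and did not follow the members (r = -0.25 over 32 libraries), and Fbxo24 stayed under 0.824 CPM.

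Solute carriers had the steepest differences between libraries. Slc13a4, a sulfate transporter, lay at 2.26, 2.90 and 25.7 CPM in WT_CD, 1.93, 16.7 and 42.3 CPM in WT_HFD, 2.19, 3.09 and 36.04 CPM in KO_CD, and 2.52, 4.67 and 47.8 CPM in KO_HFD. Slc22a6, the organic anion transporter OAT1, lay at 0.976, 1.34 and 12.6 CPM in WT_CD, 1.45, 8.503 and 22.3 CPM in WT_HFD, 0.775, 1.48 and 19.05 CPM in KO_CD, and 1.30, 2.36 and 22.6 CPM in KO_HFD. In WT_CD and KO_CD most libraries of both genes stayed near the bottom of the range and 1 stood far above, while in WT_HFD the median itself lay between low and high libraries. Slc6a13, which takes up GABA and taurine, ranged 14.9-fold and Slc6a20a, a proline transporter, 10.9-fold. Slc22a2, the organic cation transporter OCT2, was near the detection limit, at 0 to 1.39 CPM, and no fold is given for it.

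Among growth factor and retinoid genes, Igfbp2 encodes a protein that binds insulin-like growth factors. Its Pearson's r with the other members was the highest of the 36 (0.99075, against 0.99053 for Slc6a13), but its rho was not. It lay at 6.04, 6.84 and 23.3 CPM in WT_CD, 5.19, 18.8 and 42.0 CPM in WT_HFD, 6.34, 7.30 and 32.6 CPM in KO_CD, and 6.42, 9.44 and 37.9 CPM in KO_HFD. Its ligand gene Igf2 ranged from 0.576 to 6.04 CPM and was the 1 member whose highest library was KO_CD replicate 1. The annotated antisense gene Igf2os, on the opposite strand, followed the members too (r = 0.83), and its reads cannot be told from those of Igf2 because the strand setting of the counting is not given in the sources used here. Aldh1a2, the enzyme that makes retinoic acid, lay at 3.53, 3.94 and 16.9 CPM in WT_CD, 2.54, 9.84 and 28.1 CPM in WT_HFD, 2.48, 4.79 and 24.6 CPM in KO_CD, and 3.71, 6.80 and 29.1 CPM in KO_HFD. Crabp2, which binds retinoic acid inside the cell, ranged 8.13-fold. The bone morphogenetic protein gene Bmp6 ranged 9.85-fold and Bmp7 4.20-fold. Bmp6 overlaps Txndc5, a gene of the opposite strand at 65.2 to 79.2 CPM that followed the members less closely (r = 0.58).

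The transcription factor genes followed the same libraries, with medians over the 32 libraries from 1.07 CPM for Osr1 to 5.69 CPM for Foxc1. Foxc1, a forkhead factor needed for meningeal development in mice, lay at 4.42, 5.64 and 9.05 CPM in WT_CD, 4.82, 7.51 and 14.6 CPM in WT_HFD, 4.61, 5.53 and 12.04 CPM in KO_CD, and 4.30, 6.28 and 13.4 CPM in KO_HFD. Its relative Foxc2 ranged 13.2-fold, the forkhead gene Foxd1 3.96-fold and the zinc finger gene Osr1 32.5-fold, the last from only 7 reads in its lowest library. Cdh1, which encodes E-cadherin of epithelial and arachnoid barrier junctions, ranged 31.4-fold, at 0.483, 1.45 and 6.38 CPM in WT_CD, 0.984, 3.90 and 14.4 CPM in WT_HFD, 0.803, 1.44 and 10.2 CPM in KO_CD, and 0.642, 2.35 and 15.2 CPM in KO_HFD. It was high in the same libraries as the solute carriers.

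**Figure D2:**
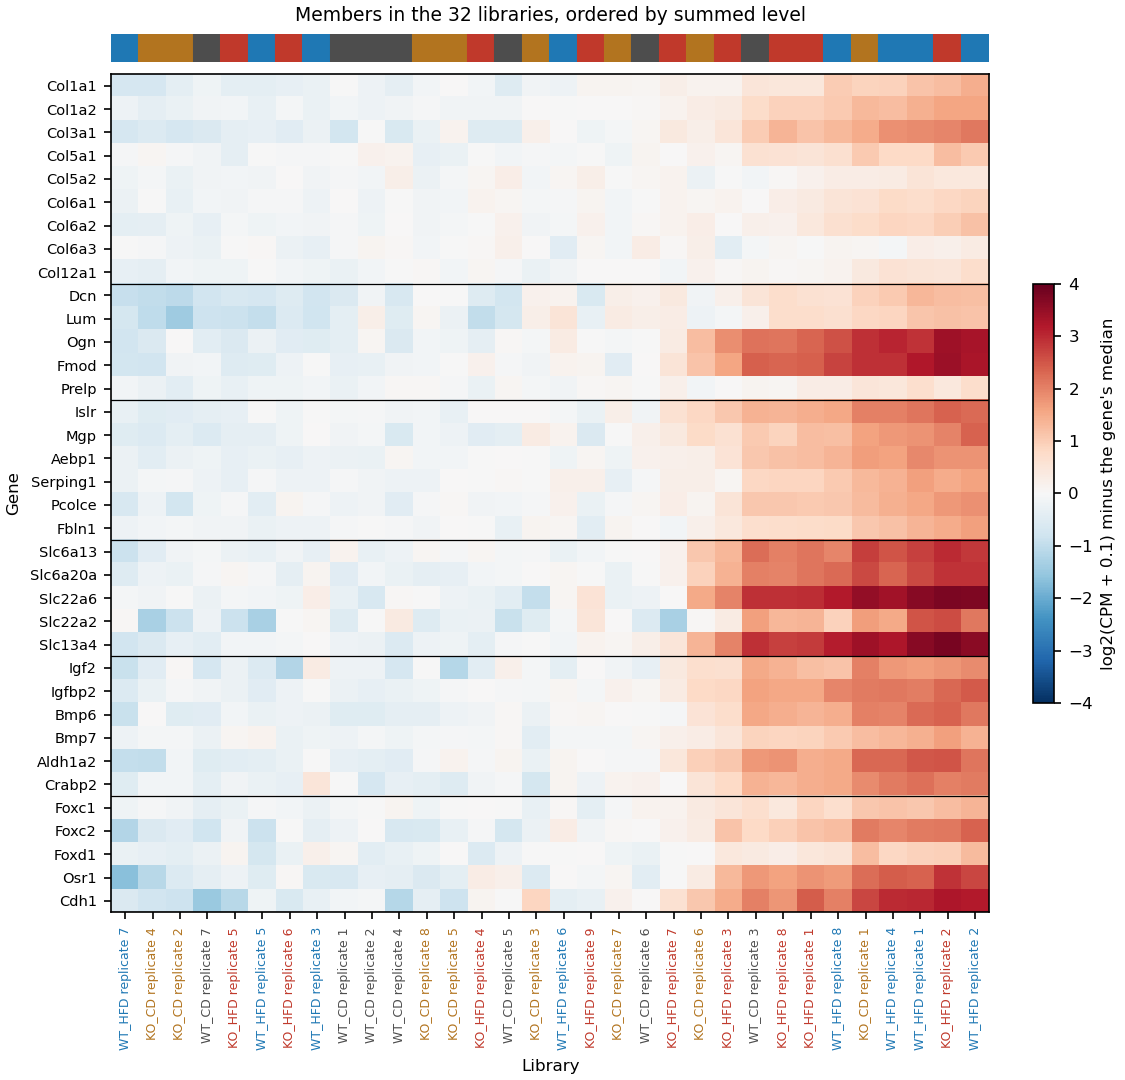
Level of each of the 36 genes (rows, grouped by role) in the 32 libraries (columns, ordered by summed level, label colour by group), as log2(CPM + 0.1) minus the gene's median. The 9 libraries at the right are high for nearly all members, while Col6a3 and Col5a2 change little, and WT_HFD replicate 2 is the highest library for 16 members.

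Within groups the genes varied together. After the group means were removed, Pearson's r of a gene with the mean of the other members over the 32 libraries was 0.40 for Col6a3 to 0.99 for Igfbp2, with a median of 0.96. It exceeded 0.9 for 29 of 36 genes, and without the 2 libraries farthest from the median for 27. With each gene scaled to the same variance about the group means, the first principal component held 87.4% of the variance and the second held 3.74%. These correlations are a description: the libraries share dissection, depth and scaling, so they have no p.

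Correlations were lower among the libraries of low summed level. Over the 630 pairs of members the median r was 0.91 in all 32 libraries, and among the 23 libraries under 500 CPM it was 0.51, with a lowest value of -0.39. The median r with the other members was 0.71 in those 23 libraries, and 6 genes exceeded 0.9. Among the 9 libraries over 500 CPM the median pair had r = 0.88, but here the group means were not removed, so this value includes differences between groups. The line of 500 CPM was drawn after the values were seen, and on the summed level of these same members. Such a split narrows their range, which lowers r by itself. The drop in r therefore cannot show how much of the shared variation came from the 9 high libraries. By group the median pair had r = 0.80 in WT_CD, 0.97 in WT_HFD, 0.89 in KO_CD and 0.91 in KO_HFD.

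Genes whose products act together did not all stay together. Type I collagen genes Col1a1 and Col1a2, on different chromosomes, had r = 0.95. The neighbours Col6a1 and Col6a2 on chromosome 10, 85.2 kb apart, had r = 0.95, whereas Col6a1 and Col6a3 had r = 0.54. Col3a1 and Col5a2 face opposite strands on chromosome 1, with 24.6 kb between them, and had r = 0.64. Dcn and Lum, 47.0 kb apart on chromosome 10, had r = 0.96, and Fmod and Prelp, 115839 bases apart on chromosome 1, had r = 0.83. Of the transporters, Slc6a13 and Slc6a20a had r = 0.99, and of the ligands Bmp6 and Bmp7 had r = 0.97. The lowest followers after Col6a3 were Col5a2 (r = 0.66), Lum (0.81), Slc22a2 (0.83), Col12a1 (0.86) and Prelp (0.87).

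Members also differed in how steeply they followed. For each doubling of the other members, Slc13a4 changed by 2.01 on the log2 scale, Slc22a6 by 1.97, Cdh1 by 1.79, Ogn by 1.78 and Fmod by 1.76. The slope was 0.75 for Col1a2, 0.35 for Col6a1, 0.29 for Prelp, 0.27 for Col12a1, 0.16 for Col5a2 and 0.10 for Col6a3. The steepest slopes thus belonged to a pair of carriers, E-cadherin and the proteoglycans Ogn and Fmod, and the flattest to Col6a3, Col5a2, Col12a1 and Prelp.

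**Figure D3:**
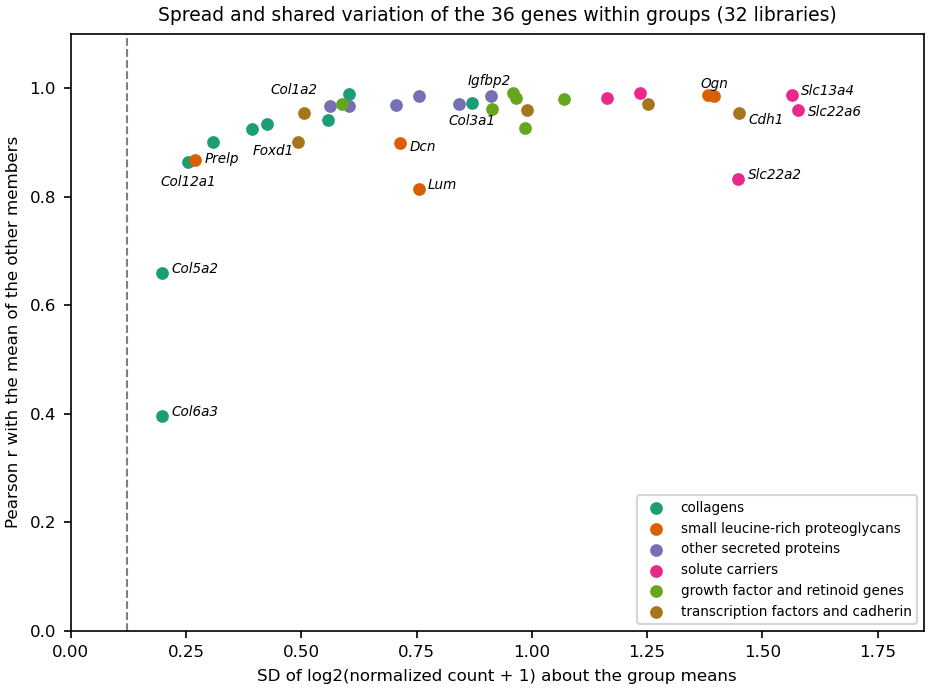
Spread of each of the 36 genes within groups (horizontal, SD of log2 values about the group means) against Pearson's r with the mean of the other members (vertical), coloured by role. The dashed line is the median SD of all genes tested, 0.12; Col6a3 and Col5a2 lie apart at low spread and low r, and 29 of the 36 genes exceed an r of 0.9.

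Between diets in wild type the design asks which genes change with high-fat feeding. No member was called: 0 of 36 had an adjusted p under 0.05 in limma's test, where 0.0251% of all 19928 genes were called. The median log2 fold change (on the log2(normalized count + 1) scale) was 0.66 against -0.0001 over all genes, and 35 of 36 genes were above 0, against 49.9% of all genes. The members vary together, so their signs, here and below, are not independent of one another. The largest values were 1.61 (SE 0.81) for Slc22a6, 1.37 (SE 0.75) for Cdh1 and 1.35 (SE 0.81) for Slc13a4, and by role the medians ran from 0.33 for collagens to 1.06 for solute carriers. Of the members, 2 had an unadjusted p under 0.05, against 7.39% of all genes, and the lowest was that of Col3a1 (log2 fold change 0.94, SE 0.45 and limma adjusted p = 0.669). Col6a3 was the member below 0, at -0.06 (SE 0.10). WT_HFD held 4 of the high libraries against 1 in WT_CD. That count of 2 depended on single libraries and on the model: it was 24 without WT_HFD replicate 7 and 20 without WT_CD replicate 3, and 9 to 12 without WT_HFD replicates 3, 5 or 6. With age as a term it was 25, against 8.24% of all genes, and the median was 1.05. The age term rested on few mice. The only mice of 149 days on high-fat diet had summed levels of 934 CPM in WT_HFD and 618 CPM in KO_HFD. The only WT_CD mouse of 150 days had 255 CPM. The count was 13 with the run of 8 label numbers as a term, against 8.10% of all genes. It was 12 in limma-voom with quality weights, against 8.34%, and 1 in limma-voom on the recovered reads, against 7.70%. In each of these fits 0 members were called.

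In the knockout the same comparison gave a smaller median, 0.34, with 35 of 36 genes above 0, against 49.4% of all genes. Of the members 0 were called, against 0.0351% of all genes. The lowest p was that of Col5a2 (log2 fold change 0.19, SE 0.09 and limma adjusted p = 0.709), and it was the only member under 0.05 unadjusted, against 7.04% of all genes. The largest value was that of Osr1, at 0.95 (SE 0.61). Without KO_HFD replicate 2 the median was 0.16 and without KO_CD replicate 1 it was 0.56, so that single libraries moved its size. With age as a term it was 0.59.

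Averaged over genotypes, diet gave a median of 0.51, with 0 of 36 genes called, against 0.336% of all genes. Of the members, 10 had an unadjusted p under 0.05, against 11.1% of all genes, and the lowest was that of Col6a1 (log2 fold change 0.27, SE 0.11 and limma adjusted p = 0.356). With single libraries left out that count ran from 1, without KO_HFD replicate 2 among others, to 29 without KO_CD replicate 1. With age as a term it was 28 and the median was 0.82, still with 0 called. With the run of 8 label numbers as a term the count was 24, the median 0.53 and the calls 0. Limma-voom on the recovered reads also called 0 members in this and each other comparison. Diet comparisons share their mice with those above, so they are not independent of them.

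Between genotypes on control diet the differences were small relative to their error. The median log2 fold change was 0.10, with 31 of 36 genes above 0, against 49.8% of all genes. Of the members 0 were called, against 0.00502% of all genes (the 1 gene called was not a member). Col5a2 had the lowest p (log2 fold change -0.11, SE 0.10 and limma adjusted p = 1.00). The sign of the median rested on 1 library, since it was -0.09 without KO_CD replicate 1 and 0.26 without WT_CD replicate 3. In mice of 149 days alone the median was 0.05.

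On high-fat diet 35 of 36 genes were below 0 in the knockout, with a median of -0.21 and 0 called, against 0.00502% of all genes. Of all genes, 48.5% were above 0 in this comparison. Osr1 was the member above 0, at 0.09 (SE 0.61), and Prelp had the lowest p (log2 fold change -0.17, SE 0.13 and limma adjusted p = 0.956). In mice of 150 days alone the median was -0.16, and with single libraries left out it ran from -0.38 without KO_HFD replicate 2 to -0.06 without WT_HFD replicate 2. Averaged over diets genotype gave a median of -0.06 and 0 called, against 0.00502% of all genes, and the lowest p was that of Col5a2 (limma adjusted p = 0.93). For the interaction of genotype and diet 0 members were called, against 0% of all genes. It had a median of -0.35, with 3 members above 0, against 49.7% of all genes. With single libraries left out that median ran from -0.52 without KO_HFD replicate 2 to -0.11 without KO_CD replicate 1. The lowest p was that of Mgp (-0.65, SE 0.60 and limma adjusted p = 0.999). In neither genotype comparison nor the interaction did any member have an unadjusted p under 0.05, against 4.12% of all genes on control diet, 5.15% on high-fat diet, 5.72% averaged over diets and 3.39% for the interaction.

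**Figure D4:**
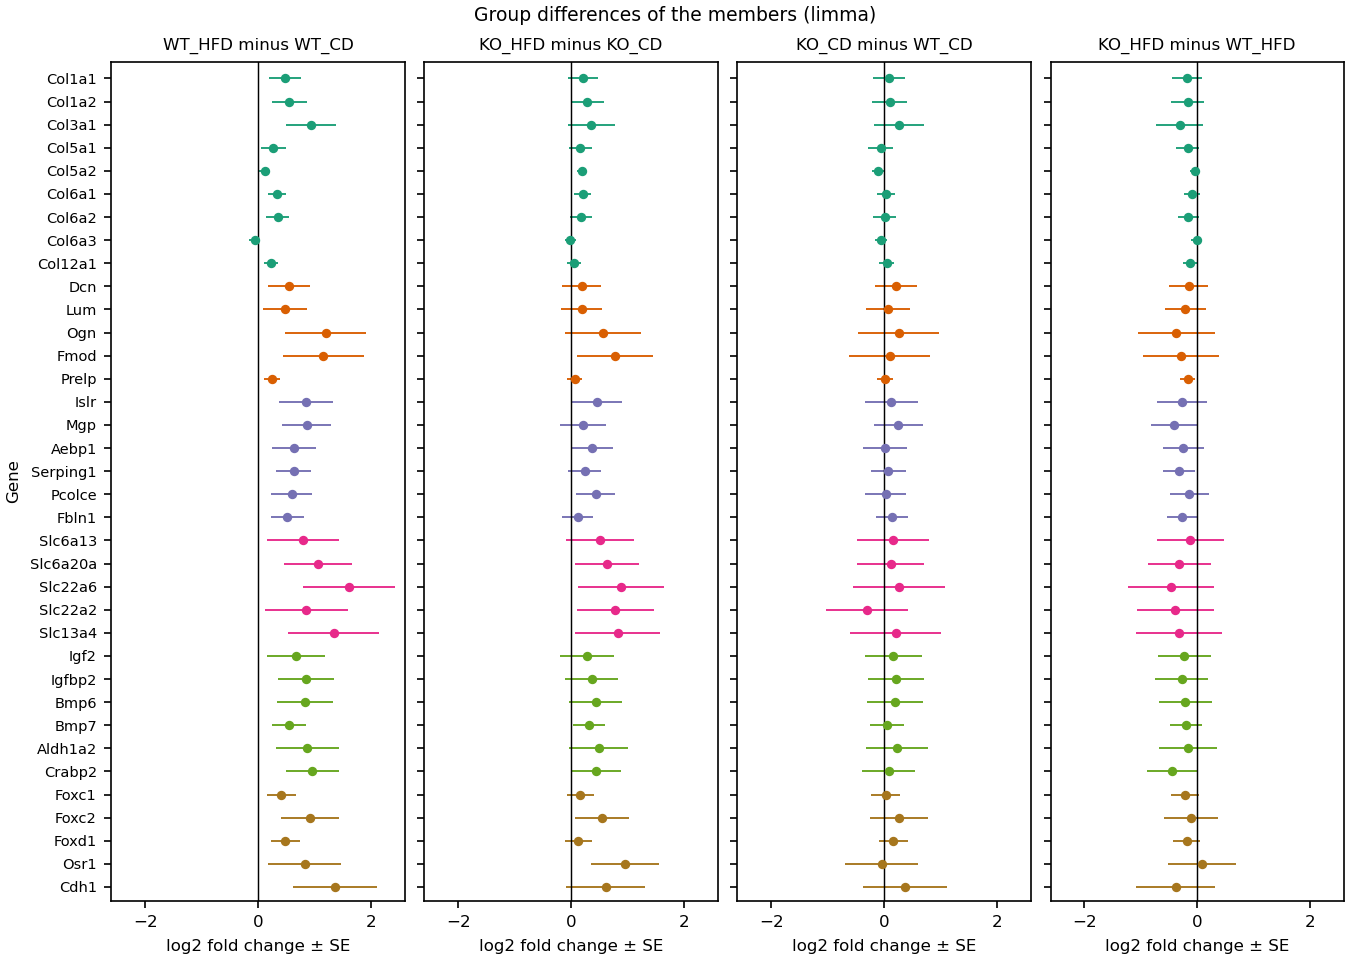
Log2 fold change with its SE (horizontal) for each of the 36 genes (vertical, coloured by role) in the diet and genotype comparisons, from limma. For diet in wild type 35 of 36 genes lie above 0 with SEs of 0.10 to 0.81, and 0 of 36 were called in any of the panels.

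Other genes of the matrix and of the signalling pathways followed the members to different degrees, and none was called in any comparison. Of the other meningeal genes, 23 of the 35 tested had r over 0.7 with the members and 15 had r over 0.9, led by Ptgds, encoding prostaglandin D synthase (r = 0.99), and the gap junction gene Gjb2 (0.99). Of the other matrix proteins it was 16 and 8 of 32, led by Fn1, encoding fibronectin (0.98), and Efemp1 (0.97). Of the collagen-modifying genes it was 5 and 0 of 31, led by the crosslinking enzymes Loxl2 (0.86) and Lox (0.81), and of the other collagens 6 and 2 of 31, led by Col13a1 (0.93) and Col8a2 (0.90). In the retinoid pathway 3 of 15 had r over 0.7, among them the retinol carrier gene Rbp4 (0.95), and in the BMP and IGF pathways 6 of 27, led by Igfbp6 (0.95) and Igfbp4 (0.93).

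Markers of some other cell types moved with the members and others did not. Border macrophage markers summed to 5.94 to 22.7 CPM, with r = 0.97 with the member mean, and 5 of 8 tested had r over 0.7, led by Mrc1 (0.93) and F13a1 (0.89). Their ranges were 7.01 to 15.2 CPM in WT_CD, 5.94 to 21.2 in WT_HFD, 6.82 to 17.1 in KO_CD and 7.88 to 22.7 in KO_HFD. Of the 9 border macrophage markers listed, 6 had a mean under 1 CPM. Mural cell markers (4 of 10 over 0.7) summed to 230.0 to 333 CPM with r = 0.93, led by Vtn (0.97) and Acta2 (0.81). Taken singly their median r was 0.41, and Rgs5, Notch3, Kcnj8, Cspg4 and Abcc9 had r of 0.02 to 0.26. Endothelial markers (2 of 12 over 0.7, Cdh5 and Abcb1a) summed to 302 to 370.0 CPM with r = 0.79. Taken singly their median r was 0.34, and Cldn5, Emcn, Flt1 and Mfsd2a had r of -0.03 to 0.34. The part of these cell types in the differences between libraries was not tested.

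Choroid plexus shares carriers and growth factors with the meninges. Its markers summed to 72.9 to 95.8 CPM with r = 0.55, and its defining gene Ttr was at 0.288 to 4.92 CPM. Of the 10 tested, 2 had r over 0.7 (Kcnj13 and Kl). Kcnj13 was near the detection limit, at 0 to 1.17 CPM, and 4 of the 11 markers listed had a mean under 1 CPM. Blood markers summed to 399 to 1491 CPM and had r = 0.12. The 4 globin genes were called higher for diet averaged over genotypes, Hbb-bs by a log2 fold change of 0.62 (SE 0.14, limma adjusted p = 0.0381) and Hba-a2 by 0.59 (SE 0.13, limma adjusted p = 0.0412). In the hypothalamic list Avp was called higher (0.34, SE 0.08, limma adjusted p = 0.0477) and Hcrt lower (-0.36, SE 0.08, limma adjusted p = 0.0362) in that comparison, with r of 0.20 and -0.32 with the members. The correlations of the summed markers were 0.18 for pituitary, where Lhb was at 0 reads in every library, -0.08 for Schwann cells and 0.28 for ependyma. They were 0.07 for astrocytes, -0.12 for oligodendrocytes, 0.06 for hypothalamus and -0.32 for neurons. Only 1 marker of these lists had r over 0.7, the astrocyte gene Gjb6 (0.85), which is also in the list of other meningeal genes.

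**Figure D5:**
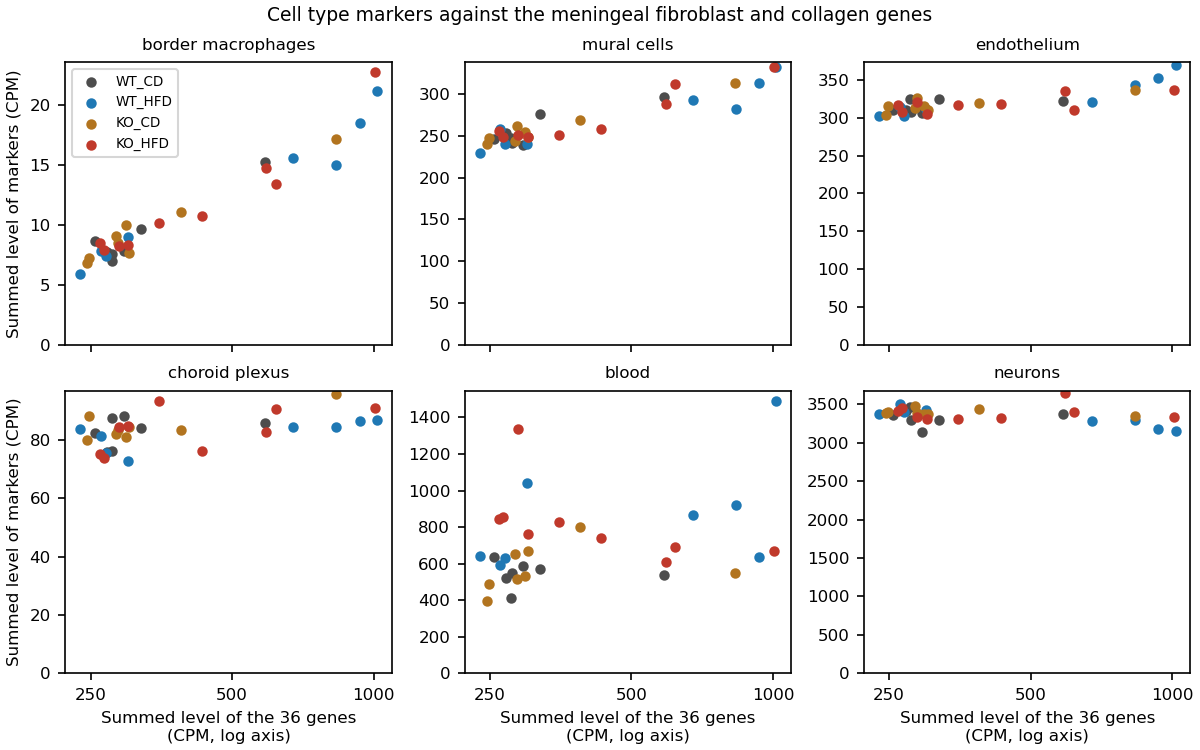
Summed level of the markers of 6 cell types (vertical axes, CPM from 0) against the summed level of the 36 genes (horizontal, CPM on a log axis) in the 32 libraries, coloured by group. Border macrophage markers run from 5.94 CPM to 22.7 CPM along the axis, while blood markers scatter with r = 0.12.

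Beyond the listed genes, 124 of the other 19892 genes tested (0.623%) had r over 0.9 with the mean of the members, and the median was -0.02. Of the 15 most alike with a mean of at least 1 CPM, Ptgds (r = 0.989) ranged from 175 to 2270 CPM, which is wider than the summed level of the 36 genes. Others were Ranbp3l, Gjb2, Itih2, Fn1, Colec12, Spp1, Cp, Fgl2, Slc13a3, Prg4, Cped1, Vtn and Slc22a8, with r of 0.972 to 0.987. Ogfod1 (r = -0.82) and the neuronal enolase gene Eno2 (-0.81) had the most negative values. Of the 67 genes called for diet averaged over genotypes, 1 (1.49%) had r over 0.7 with the members, against 2.65% of the other genes tested.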

How the data were processed

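RNA was extracted with a column kit and sequenced as stranded paired-end libraries, per the labels' protocols. The submitters' processing notes list STAR 2.7.6a and build GRCm38, with trimming by Trim Galore 0.6.2 and cutadapt 2.10, DESeq2 1.28.1 under R 4.0.2, and FastQC. How reads were assigned to genes, on which strand and with which gene models is not given in these sources. The values deposited by the authors are log2 of a read count divided by a size factor, with a count of 0 listed as log2 of 0.1. Undoing the steps returned whole reads for 100% of values above that floor (tolerance 1e-06 reads), from which CPM was computed.

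Symbols and coordinates came from GENCODE M21 (GRCm38). Log2(normalized count + 1) was fitted with limma 3.58.1 (trend and robust moderation, statmod 1.5.0, R 4.3.3) over the 19928 genes with at least 10 normalized counts in at least 7 libraries, with 4 groups in 1 fit, two-sided tests and Benjamini-Hochberg adjustment over all genes at 0.05. The fit was tested on simulated counts, drawn independently and with the same dispersion for every gene. Such counts lack the wide, shared variation of the members, so that test does not cover it. Each library is a separately labelled mouse, and p-values measure the spread between these mice. The members and gene lists were chosen with earlier results of these data known. The text names all 36 members, the targeted gene, the leading called genes of each list (at most 2 in each direction) or, with none called, its 2 closest followers, and the 15 genes most like the members by r; a few genes under this rule are not reported here. Further genes, such as Ttr and Lhb, were named after their values were seen. The summed levels and correlations were computed in Python 3.11.15 with numpy 2.4.6, pandas 2.3.3 and scipy 1.17.1. Alternatives changed the pseudocount, filter, scaling, model, covariates and libraries. The replicate numbers of the labels do not mark a shared animal.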

Additional observations from a re-analysis of the deposited data

Results flagged for a closer look

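In 3 libraries the summed level stood apart from the rest of their group by Dixon's criterion. It sets the gap to the nearest other library against the group's range. For normally distributed values it flags about 1 in 20 groups by chance. It was applied here to CPM and not to log2 values, and that rate need not hold for CPM. WT_CD replicate 3 had 586 CPM over the 36 genes, where the next WT_CD library had 320 CPM. Its role sums were 101 CPM for proteoglycans, 126 CPM for other secreted proteins, 94.5 CPM for solute carriers, 81.1 CPM for growth factor and retinoid genes and 27.7 CPM for transcription factors and cadherin.

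KO_CD replicate 1 had 832 CPM over the 36 genes. By role it had 214 CPM for collagens, 143 CPM for proteoglycans, 180.2 CPM for other secreted proteins, 139 CPM for solute carriers, 112 CPM for growth factor and retinoid genes and 44.97 CPM for transcription factors and cadherin. KO_HFD replicate 2 had 1007 CPM over the 36 genes, with 253 CPM for collagens, 179.8 CPM for proteoglycans, 134 CPM for growth factor and retinoid genes and 52.9 CPM for transcription factors and cadherin. It was the highest of 3 KO_HFD libraries over 500 CPM, the others having 591 and 618 CPM. Its mean log2 value over the members was 9.23, against 8.52 in the next KO_HFD library and 7.02 in the lowest.

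Of the 36 genes taken singly, 31 stood apart in KO_CD replicate 1, 26 in WT_CD replicate 3 and 18 in KO_HFD replicate 2, and these genes are not independent of one another. In WT_HFD, 4 of 8 libraries were high and none stood apart. The cause was not tested.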

How the results depend on the processing

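No member was called in any comparison under any alternative run. The median log2 fold change of the members kept its sign in the diet comparisons, the interaction and genotype on high-fat diet. For genotype averaged over diets, whose median was -0.06, it was above 0 without WT_CD replicate 3 (0.03) and without WT_HFD replicates 1, 2 or 4 (0.01 to 0.03), and for genotype on control diet it was -0.09 without KO_CD replicate 1. Leaving out each library in turn gave 0.42 to 0.61 for diet averaged over genotypes, 0.50 to 0.87 for diet in wild type, 0.16 to 0.56 for diet in knockout, -0.09 to 0.26 for genotype on control diet, -0.38 to -0.06 for genotype on high-fat diet, -0.15 to 0.03 for genotype averaged over diets and -0.52 to -0.11 for the interaction. With the replicate block the medians were 0.52, 0.61, 0.40, 0.05, -0.16, -0.04 and -0.22 in that order, and 0 members were called. Same-numbered libraries had a median correlation of 0.005, with 8 of 45 pairs over 0.1, so the numbers were not taken to pair the mice; 11 of 32 libraries correlated best with their own number, a hint from the data and not from the design. Leaving out the 3 libraries far above their group, chosen by that level after seeing the data, gave 26 of 36 genes an unadjusted p under 0.05 for diet in wild type (median 0.87, lowest adjusted p = 0.369 by limma) and 30 for diet averaged (median 0.62, lowest adjusted p = 0.189). That choice removed the only library over 500 CPM in WT_CD and in KO_CD and kept all 4 in WT_HFD. Of the 3 such libraries in KO_HFD it removed the highest. It raises the diet difference in wild type by construction, so these counts are no test of diet. With limma-voom the lowest adjusted p over the members was 0.369 for diet averaged, and with quality weights 0.268. The within-group median pair correlation was 0.513 in the 23 libraries under 500 CPM, against 0.91 in all. Those libraries were selected by the members' own level, which lowers r by itself. Depth limits Slc22a2 most, with 0 to 37 reads per library.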
